A study of Danio rerio with 25 samples.

Results

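Integrins and laminins, the receptors and ligands through which epithelia hold on to a basement membrane, were followed in zebrafish epicardium, the mesothelial covering of the heart. Members were the genes of the RNA table whose name begins with itga, itgb, lama, lamb or lamc and that had at least 10 counts summed over the 11 RNA libraries. This gave 48 of 31275 genes, of which 21 encode integrin alpha chains, 12 integrin beta chains, 5 laminin alpha chains, 5 laminin beta chains and 3 laminin gamma chains. The other 2, *itgb1bp1* and *itgbl1*, carry an integrin name but are not subunits. The least abundant member had 69 counts in all, and 47 passed the filter on low counts, the exception being *itgb8*. In chromatin, 172 of 61954 peaks were annotated to 37 of the members, and all 172 passed the filter. A further 5 genes with upper-case integrin or laminin names, such as *LAMB3*, did not meet the rule and were not included.

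The 11 RNA libraries comprised adult epicardium after cryoinjury (3 libraries), adult epicardium after sham surgery (2), larval epicardium (3) and larval non-epicardium, the remaining heart cells (3). The 14 ATAC libraries, in which the Tn5 transposase tags open chromatin, comprised adult epicardium after cryoinjury (4) and sham surgery (2), and larval epicardium and non-epicardium obtained with a tcf21 reporter (2 each) and with a tbx18 reporter (2 each). Adults carried tcf21:BirA-mCherry and were taken 3 days after surgery. Larvae were 5 days post fertilization, untreated, and carried tcf21:H2B-Dendra2 (RNA and ATAC) or tbx18:myr-Citrine (ATAC). ATAC cells and larval RNA cells were sorted by fluorescence, whereas adult RNA came from pulled-down nuclei. Stage, reporter construct and, for RNA, the use of nuclei or whole cells cannot be told apart wherever adults are set against larvae. The reporters follow tcf21 or tbx18 regulatory sequence, so each population is defined by that gene's activity and not by position on the heart. The labels do not say whether libraries came from separate fish or how many fish were pooled, and p-values measure the spread between these libraries.

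A laminin is a heterotrimer of one alpha, one beta and one gamma chain that is secreted and polymerizes into basement membranes. An integrin is a transmembrane dimer of one alpha and one beta chain, in which the alpha chain largely sets the ligand: laminin for itga3 and itga6, collagen for itga1, itga2, itga10 and itga11, and fibronectin and related proteins for itga5, itga8 and itgav. The epicardium is a mesothelium that rests on a basement membrane and, after injury, gives rise to cells that move into the matrix below it. In mice, the itga4 chain, which binds fibronectin and the adhesion molecule VCAM-1, is needed for the epicardium to stay attached to the heart.

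RNA totals ranged from 4635226 to 8371594 counts per library and ATAC totals from 755606 to 6248597, so that 3 counts, used here as the floor of detection, equalled 0.309 to 0.717 CPM in RNA (CPM being counts set relative to library size) and 0.539 to 4.51 CPM in ATAC. Floors cover counting error only. Integrins and laminins together took 0.173% to 0.274% of the counts in cryoinjury libraries, 0.159% and 0.207% in sham libraries, 0.212% to 0.312% in larval epicardium and 0.0650% to 0.0687% in larval non-epicardium. Larval epicardium library B stood apart, with a median of 31 counts per gene against 14 in libraries A and C. Summed over 5 epicardial markers (tcf21, tbx18, wt1a, wt1b and aldh1a2), adult cryoinjury libraries had 542 to 571 CPM, sham libraries 371 to 495 CPM, larval epicardium 515 to 1429 CPM and larval non-epicardium 10.6 to 18.3 CPM. The 5 cardiomyocyte markers summed to 17853 to 22709 CPM after cryoinjury, 25131 to 41353 CPM after sham surgery, 145 to 1268 CPM in larval epicardium and 4723 to 13947 CPM in larval non-epicardium, with none at 0. In such bulk samples, more cells of a type and more RNA per cell cannot be told apart.

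Larval epicardium expressed a set of laminin chains that was scarce in the bulk of the other larval heart cells. These were mixed cells, and levels in single cell types were not measured. Of the 13 laminin genes, none fell and 5 rose in epicardium against non-epicardium, where 5.68% of all genes rose and 7.77% fell. The 5 were *lama5*, *lama4*, *lamb1a*, *lamb2* and *lamc1*. They supply an alpha, a beta and a gamma chain, and the fitted folds spanned 12.6-fold to 41.4-fold. *lama5*, an alpha chain of most epithelial basement membranes, had 777, 392 and 534 CPM in epicardium, against 23.5, 9.17 and 8.35 CPM in non-epicardium. *lamb1a*, the more abundant of the lamb1 copies in larval epicardium, had 473, 244 and 370 CPM in epicardium and 7.95, 4.59 and 17.3 CPM in non-epicardium. In both genes the lowest epicardial library lay more than 10-fold above the highest non-epicardial one, and in both it was library B. The fitted log2 fold changes were 5.37 for *lama5* (SE 0.69, adjusted p = 2.83e-05, edgeR) and 5.19 for *lamb1a* (SE 0.60, adjusted p = 7.88e-06, edgeR).

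*lamc1*, the gamma chain shared by most laminins, averaged 224 ± 104 CPM in epicardium and 11.1 ± 3.58 CPM in non-epicardium (SD, n = 3 each), with log2 fold change 4.33 (SE 0.62, adjusted p = 8.48e-05, edgeR). *lama4*, the alpha chain known from endothelial and mesenchymal laminins, averaged 155 ± 32.2 and 12.3 ± 5.19 CPM in the same order of groups, with log2 fold change 3.65 (SE 0.55, adjusted p = 0.00014, edgeR). *lamb2*, the beta chain that can replace lamb1 in the trimer, had 210, 61.5 and 210 CPM in epicardium and 8.31, 17.6 and 8.76 CPM in non-epicardium (log2 fold change 3.79, SE 0.67, adjusted p = 0.000704, edgeR). No library of one group reached the range of the other in any of these 5 genes, and each kept its call under every alternative run, leaving out each of the larval libraries included. The other 8 laminins were not called. Among them, *lamb1b* had 41, 35.7 and 49.1 CPM in epicardium and 22.6, 13 and 5.01 CPM in non-epicardium (adjusted p = 0.0801, edgeR), and *lamc3* was the 1 laminin with the higher mean in non-epicardium, at 6.14 ± 4.42 CPM in epicardium and 18.2 ± 3.30 CPM in non-epicardium (adjusted p = 0.455, edgeR). *lama3*, an alpha chain of epithelial anchoring complexes, was low in larval epicardium, at 2.16 to 5.56 CPM.

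**Figure D1:**
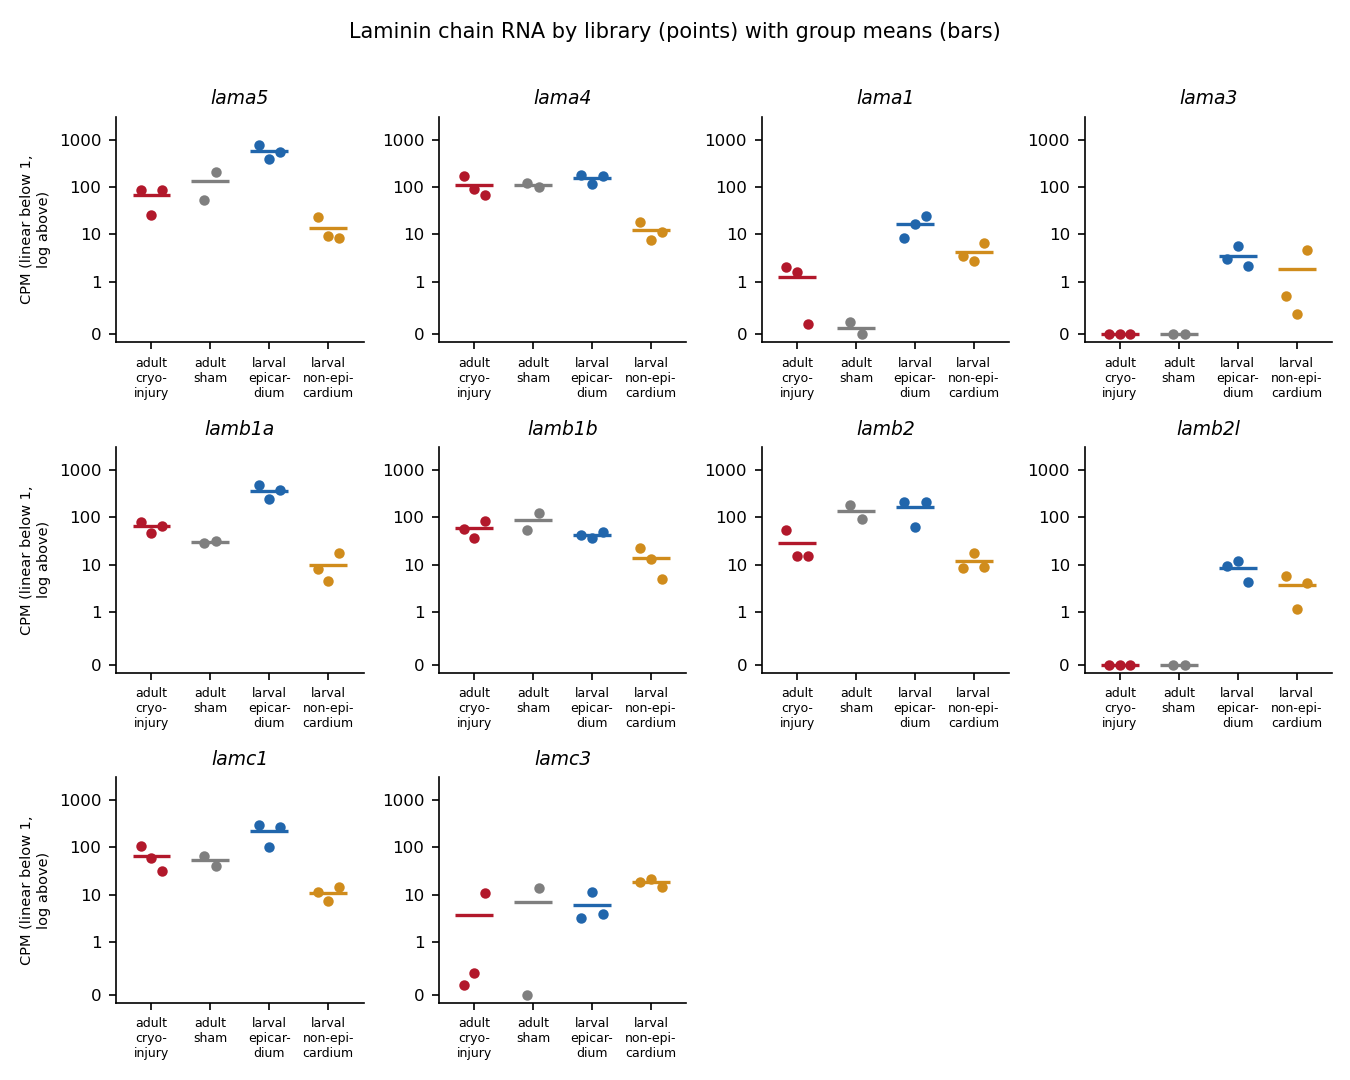
RNA level of 10 laminin genes in each library (points) with group means (bars), in CPM on an axis that is linear below 1 and logarithmic above. *lama5*, *lamb1a* and *lamc1* are highest in larval epicardium, *lama4* overlaps between adult and larval epicardium, and *lama3* and *lamb2l* have 0 counts in all 5 adult libraries.

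Per length, the gamma chains of larval epicardium summed to less than its alpha or beta chains, with no overlap between libraries. Summed over the genes of each class, laminin alpha chains had 77.6 ± 20.5, beta chains 99.9 ± 34.1 and gamma chains 39.1 ± 15.7 CPM per kb in larval epicardium, against 4.84 ± 1.79, 7.02 ± 0.741 and 5.75 ± 0.145 CPM per kb in larval non-epicardium (SD, n = 3 each). The highest members per kb in larval epicardium among the subunits were *lamb1a* at 61, *lama5* at 49.2, *lamc1* at 36.4, *lamb2* at 29.4, *lama4* at 24.9 and *itga9* at 23.5 CPM per kb. Neighbours in this order overlapped between libraries.

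Of the 33 integrin genes, 6 rose in larval epicardium and none fell, where 5.68% of all genes rose and 7.77% fell. *itga9*, whose dimers bind tenascin and VCAM-1, had 133, 55.8 and 58.2 CPM in epicardium and 11.4, 9.17 and 7.30 CPM in non-epicardium, with log2 fold change 3.14 (SE 0.57, adjusted p = 0.00088, edgeR). *itga5*, the alpha chain of the classical fibronectin receptor, had 86.3, 116 and 82.1 CPM in epicardium and 22.6, 18.3 and 32.5 CPM in non-epicardium (log2 fold change 1.95, SE 0.44, adjusted p = 0.00494, edgeR). The groups did not overlap in either gene, and both calls held under every alternative run. The smaller rises were those of *itgav* (61.2 ± 19.3 CPM in epicardium, 16 ± 4.57 CPM in non-epicardium), *itga1* (48.3 ± 13 and 16.8 ± 9.56 CPM), *itgb1b* (27.1 ± 12.9 and 6.55 ± 3.33 CPM) and *itgb1b.1* (24.4 ± 8.22 and 2.33 ± 1.19 CPM, SD, n = 3 each throughout), with adjusted p from 0.0221 to 0.0496 (edgeR). *itgb1b.1* was no longer called after leaving out any 1 of the 6 larval libraries, *itga1* without epicardium A or C or non-epicardium B or C, *itgav* without epicardium A or non-epicardium B or C, both of these also with no filter on low counts, and *itgb1b* without epicardium A or non-epicardium A or C. *itgb1b*, *itgb1b.1* and *itgb1b.2* are copies by name, their sequences were not compared, and how reads were divided among them is uncertain.

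The itga3 and itga6 chains, named above as binding laminin, were low in the larval epicardium that expressed laminin. *itga3a* and *itga3b* averaged 5.00 and 3.41 CPM there, and *itga6a* and *itga6b* averaged 7.27 and 5.05 CPM. In non-epicardium the means were 2.06, 1.05, 1.5 and 1.40 CPM for the same genes in the same order, and none of the 4 was called (adjusted p from 0.135 to 0.499, edgeR). The groups overlapped for *itga3a* and did not for *itga3b*, *itga6a* and *itga6b*. With the Wald test of DESeq2, *itga6a* and *itga6b* were called higher in epicardium, and *itga6a* also when the compared groups were fitted alone. *itga4* was not called, with 58.7, 35.2 and 60.0 CPM in epicardium and 93, 110 and 78.7 CPM in non-epicardium (log2 fold change -0.87, SE 0.53, adjusted p = 0.303, edgeR), although the groups did not overlap.

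The member that fell in larval epicardium is not a subunit. *itgb1bp1*, whose product binds the cytoplasmic tail of itgb1 integrins, had 152, 44 and 125 CPM in epicardium and 335, 503 and 382 CPM in non-epicardium (log2 fold change -1.93, SE 0.52, adjusted p = 0.017, edgeR), and lost its call without non-epicardium library B. Non-epicardial libraries also had 20441 to 29008 CPM of 4 erythrocyte markers and 287 to 462 CPM of 3 thrombocyte markers, against 6.10 to 15 and 2.30 to 5.46 CPM in epicardium. No marker of either list was at 0 in all libraries of a larval group, and the part of these cells in the result was not tested.

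In all, 11 members were higher and 1 was lower in larval epicardium, 25.5% of the 47 tested, where 13.4% of all 20745 genes were called (5.68% higher and 7.77% lower). On the log2 scale the median change was 1.52 over the members and 0.32 over all genes. Scaling by total count moved the median of all genes to 0.93 and that of the members to 2.23. Without epicardium library B, 10 members were higher and 1 lower.

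After cryoinjury, 2 members rose in adult epicardium against sham surgery, both integrin alpha chains. *itgav*, which pairs with several beta chains to bind vitronectin, fibronectin and latent TGF-beta, had 54.1, 66.5 and 27 CPM after cryoinjury, against 0.717 and 1.69 CPM after sham surgery. *itga4* had 101, 73.2 and 28.2 CPM after cryoinjury and 4.06 and 4.24 CPM after sham surgery. The lowest cryoinjury library lay above the highest sham library in both genes. The fitted fold was 39.8-fold for *itgav* (log2 fold change 5.31, SE 0.85, adjusted p = 0.0187, edgeR) and 16.2-fold for *itga4* (log2 fold change 4.02, SE 0.72, adjusted p = 0.0248, edgeR). Over the alternatives the adjusted p ranged from 1.76e-08 to 0.0901 for *itgav* and from 5.22e-07 to 0.123 for *itga4*, and both calls were lost when the 5 adult libraries were fitted alone (0.0901 and 0.123, edgeR).

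Relative to all genes, 4.26% of the members were called after cryoinjury, where 0.318% of all genes were called (0.227% higher and 0.0916% lower). Without adjustment, p was under 0.05 for 10 of the 47 members and for 3879 of all 20745 genes, so nothing is read from the members' count. Among them *lamb2* had 54.1, 15.5 and 15.5 CPM after cryoinjury and 181 and 91.3 CPM after sham surgery (log2 fold change -2.26, SE 0.67, adjusted p = 0.0978, edgeR), with no overlap. *itgb1bp1* had 30.7, 17.9 and 16.1 CPM after cryoinjury and 3.11 and 7.41 CPM after sham surgery (log2 fold change 2.03, SE 0.63, adjusted p = 0.112, edgeR), also with no overlap. Of the 2 itga3 copies, *itga3a* had 6.58, 2.65 and 1.92 CPM after cryoinjury and 0 counts in both sham libraries, whereas *itga3b* had 7.67, 9.38 and 8.25 CPM after cryoinjury and 54.5 and 24.6 CPM after sham surgery, and neither passed the threshold (adjusted p = 0.0982 and 0.184, edgeR). With the Wald test of DESeq2, *itga3a*, *itga4*, *itgav* and *itgb1bp1* were called higher and *lamb2* lower. *lama4* and *itgb1b* lay at nearly the same mean in both groups, with *lama4* at 109 ± 54.4 and 109 ± 15.8 CPM and *itgb1b* at 85.4 ± 15 and 81.7 ± 12.9 CPM after cryoinjury and sham surgery (SD, n = 3 and 2).

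The summed leukocyte markers were higher in each cryoinjury library than in either sham library, though none of the 5 was called. These markers (ptprc, mpeg1.1, lcp1, coro1a and spi1b) summed to 256 to 532 CPM after cryoinjury, 148 to 166 CPM after sham surgery, 7.57 to 15.9 CPM in larval epicardium and 72.1 to 96.7 CPM in larval non-epicardium, with none at 0 in a whole group. The itga4 chain is also a leukocyte integrin. *itgav* was at 82.9, 54.9 and 45.9 CPM in larval epicardium, and *itgb2*, the beta chain restricted to leukocytes in mammals, was at 76.4, 15.9 and 43 CPM after cryoinjury and 16.5 and 46.2 CPM after sham surgery (adjusted p = 0.844, edgeR). The part of leukocytes in the *itga4* and *itgav* results was not tested.

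**Figure D2:**
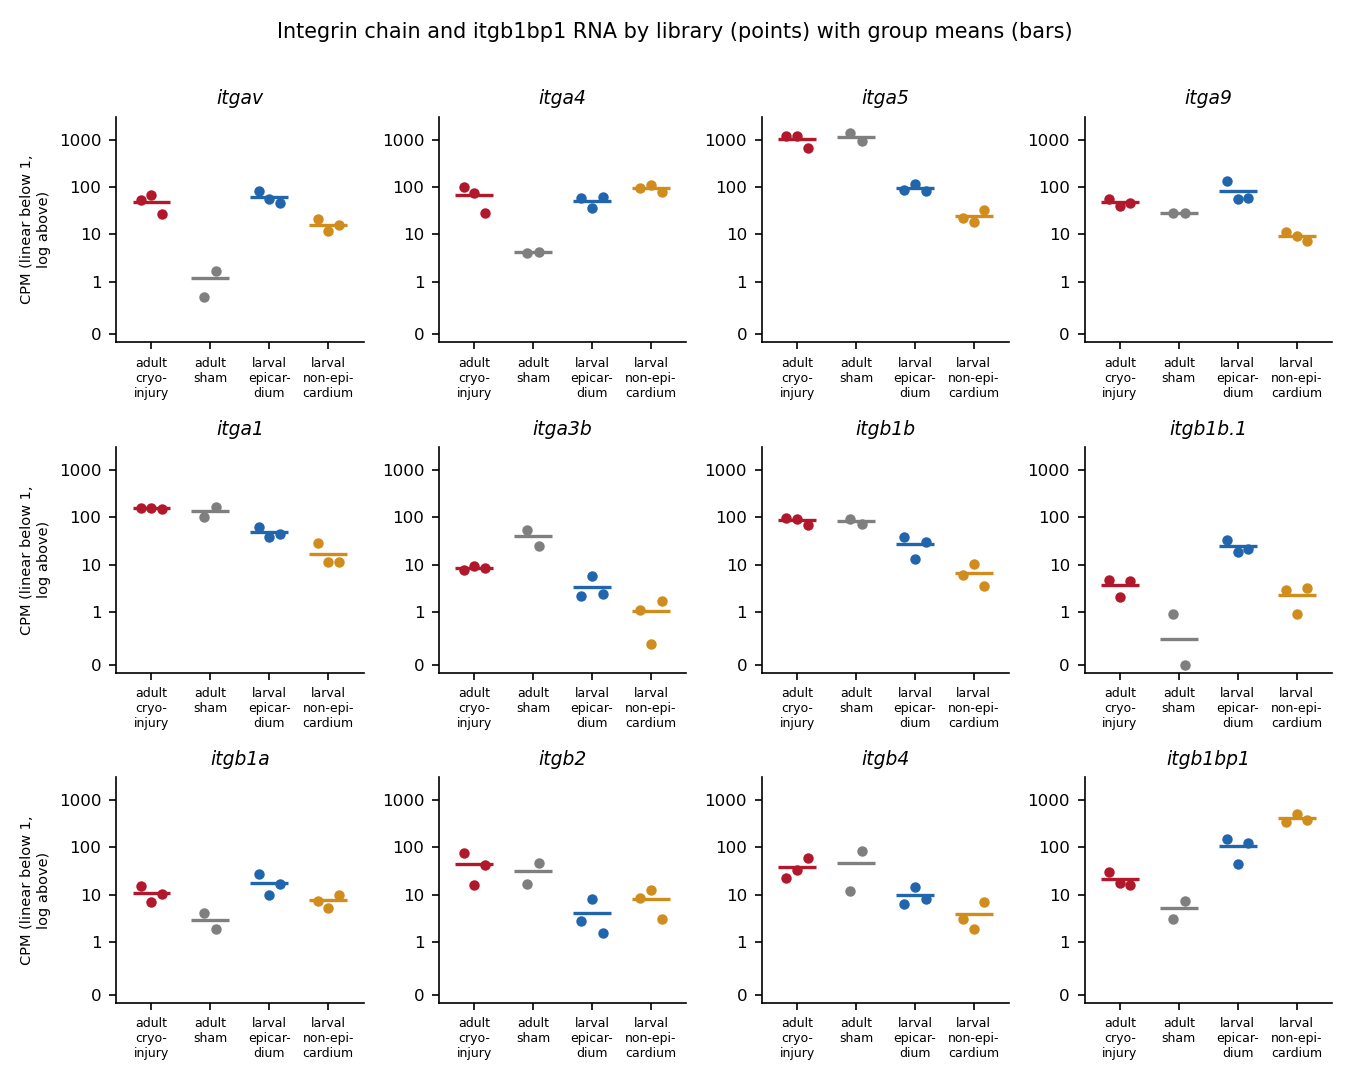
RNA level of 11 integrin genes and of *itgb1bp1* in each library (points) with group means (bars), in CPM on an axis that is linear below 1 and logarithmic above. *itgav* and *itga4* lie near 1 and 4 CPM in sham libraries and between 27 and 101 CPM in cryoinjury libraries, and *itga5* is higher in all 5 adult libraries than in the larval ones.

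Set against larval epicardium, *itgav* and *itga4* were called lower after sham surgery and were not called after cryoinjury. *itgav* averaged 49.2 ± 20.2 CPM after cryoinjury and 61.2 ± 19.3 CPM in larval epicardium (SD, n = 3 each; log2 fold change -0.32, SE 0.57, adjusted p = 0.702, edgeR). After sham surgery its log2 fold change against larval epicardium was -5.63 (SE 0.86, adjusted p = 0.000104, edgeR). *itga4* differed from larval epicardium by 0.39 after cryoinjury (SE 0.52, adjusted p = 0.595, edgeR) and by -3.62 after sham surgery (SE 0.70, adjusted p = 0.000937, edgeR), and both sham calls held under every alternative run. The 2 adult groups are set against the same larval libraries here, so these comparisons are not independent.

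The laminins of the larval epicardium were mostly lower in the adult. Of the 13 laminins, 7 were called lower after cryoinjury, where 26% of all genes were, and 6 after sham surgery, where 25.6% were. None was called higher, where 12.1% and 11.5% of all genes were. Of the 5 epicardial markers, 2 were called lower and 0 higher in each adult group, and the part of epicardial content in the laminin levels was not tested. *lamb1a* had 80.6, 46.7 and 64 CPM after cryoinjury and 28.9 and 31.6 CPM after sham surgery, all below the lowest larval epicardial library at 244 CPM. Its log2 fold change was -2.51 after cryoinjury (SE 0.52, adjusted p = 0.0015, edgeR) and -3.58 after sham surgery (SE 0.65, adjusted p = 0.000536, edgeR). *lama5* had 86, 25.9 and 86.1 CPM after cryoinjury and 53.5 and 211 CPM after sham surgery, lower than in larval epicardium by -3.10 (SE 0.62, adjusted p = 0.00108, edgeR) and -2.10 (SE 0.70, adjusted p = 0.0271, edgeR). The second of these was lost without sham library 4 or larval epicardium library A. *lamc1* averaged 66.5 ± 38.1 CPM after cryoinjury (SD, n = 3), 53.5 ± 17.6 CPM after sham surgery (SD, n = 2) and 224 ± 104 CPM in larval epicardium (SD, n = 3), with adjusted p of 0.0174 and 0.0226 (edgeR). The highest cryoinjury value, 107 CPM, exceeded the lowest larval one, 104 CPM, and the call was lost after cryoinjury without larval library A or C or cryoinjury library 8 or 9, and after sham surgery without larval library A or either sham library. *lama1*, an alpha chain of embryonic basement membranes, had 0.192 to 2.01 CPM after cryoinjury and 0.239 CPM and 0 counts after sham surgery, against 8.52, 16.8 and 24.3 CPM in larval epicardium (adjusted p = 0.0137 and 0.00544, edgeR), and the first call was lost without larval library C. The sham level was at least 24.4-fold lower, taking the floor of 3 counts per library.

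*lamb2* was lower after cryoinjury (log2 fold change -2.50, SE 0.63, adjusted p = 0.00543, edgeR) but not called after sham surgery (-0.24, SE 0.67, adjusted p = 0.807, edgeR). The *lama4* chain was not called in either adult group, with 171, 91.4 and 66.3 CPM after cryoinjury, 120 and 97.6 CPM after sham surgery and 179, 118 and 167 CPM in larval epicardium. *lamb1b* was likewise not called, with 55.5, 35.9 and 81.3 CPM after cryoinjury, 53.5 and 124 CPM after sham surgery and 41, 35.7 and 49.1 CPM in larval epicardium. The make-up of the lamb1 pair differed between the adult groups and larval epicardium. *lamb1a* held 42.7% to 57.9% of the pair's CPM per kb after cryoinjury, 19.4% and 33.8% after sham surgery and 86.6% to 91.6% in larval epicardium. These ranges did not overlap, and the shares are a description with no test. In larval non-epicardium the *lamb1a* share spread from 25% to 76.6%.

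*itga5* was called higher in both adult groups than in larval epicardium. It had 1165, 1185 and 663 CPM after cryoinjury and 1379 and 929 CPM after sham surgery, against 86.3, 116 and 82.1 CPM in larval epicardium. The log2 fold changes were 3.41 after cryoinjury (SE 0.46, adjusted p = 2.49e-05, edgeR) and 3.61 after sham surgery (SE 0.49, adjusted p = 2.57e-05, edgeR), and the 2 adult groups did not differ past the threshold (log2 fold change -0.20, SE 0.47, adjusted p = 0.923, edgeR). Per length it was the most abundant member in both adult groups, at 174 ± 51.1 CPM per kb after cryoinjury (SD, n = 3) and 200 ± 55 CPM per kb after sham surgery (SD, n = 2), ahead of *itgb1b* at 54.8 and 52.4 CPM per kb. *itga1*, a collagen-binding chain, was also higher, with 159, 155 and 149 CPM after cryoinjury (adjusted p = 0.013, edgeR) and 102 and 164 CPM after sham surgery (adjusted p = 0.0402, edgeR), against 62.9, 37.9 and 44.2 CPM in larval epicardium. The sham call of *itga1* was lost under 10 alternatives. Other collagen-binding chains went the opposite way. *itga11a* was called lower in both adult groups, with means of 3.45 CPM after cryoinjury, 2.74 CPM after sham surgery and 26.4 CPM in larval epicardium. Its calls were lost under 3 and 5 alternatives. *itga2.1* and *itga2.2* were also called lower in both, and the *itga2.2* calls were lost under 1 and 6. *itga10*, *itga11b* and *itga2.3* were not called. Markers of several other cell types were higher in adults. Of 4 mural cell markers, 3 were in the table and were called higher in both adult groups, summing to 904 to 1702 CPM after cryoinjury, 1010 to 1602 CPM after sham surgery and 12.5 to 38.7 CPM in larval epicardium. Of 5 endothelial markers, 4 were called higher in both, with sums of 285 to 398, 431 to 739 and 96.7 to 162 CPM in the same order. All 5 cardiomyocyte markers were called higher in both, with sums of 17853 to 22709, 25131 to 41353 and 145 to 1268 CPM in that order. The part of these cells in the adult levels of *itga5*, *itga1*, *itgb1b* and the laminins was not tested.

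The itgb1 copies differed in their make-up between the adult groups and larval epicardium. *itgb1b* had 97.7, 89.7 and 68.6 CPM after cryoinjury and 90.8 and 72.6 CPM after sham surgery, against 38.4, 13.1 and 29.9 CPM in larval epicardium (adjusted p = 0.0255 and 0.0453, edgeR), while *itgb1b.1* had 4.75, 2.04 and 4.41 CPM after cryoinjury and 0.956 CPM and 0 counts after sham surgery, against 33.7, 18 and 21.5 CPM (adjusted p = 0.0337 and 0.00604, edgeR). Of the CPM per kb of *itgb1a*, *itgb1b*, *itgb1b.1* and *itgb1b.2* together, *itgb1b* held 85.5% to 88.8% after cryoinjury, 93.5% and 97.5% after sham surgery and 42% to 49.5% in larval epicardium. In larval non-epicardium the *itgb1b* share spread from 28.6% to 71.9%. The cryoinjury call of *itgb1b.1* was lost under 6 alternatives, namely with the trend on abundance removed and without any 1 larval epicardium library or cryoinjury library 8 or 9. The sequences of the copies were not compared, and the *itgb1b* call was lost under 4 alternatives after cryoinjury and 9 after sham surgery. Of the other beta chains, *itgb4*, the partner of itga6 in hemidesmosomes, was called higher in both adult groups by a narrow margin (adjusted p = 0.0495 and 0.0372, edgeR), with 22.5, 32.6 and 59.6 CPM after cryoinjury, 12 and 83.6 CPM after sham surgery and 6.49, 14.9 and 8.26 CPM in larval epicardium. It lost the call under 10 and 7 alternatives.

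Some integrins of leukocytes were called higher in adults, and others were not. *itgam* averaged 2.45 CPM after cryoinjury, 2.36 CPM after sham surgery and 4.43 CPM in larval epicardium, and *itgb7* averaged 4.78, 2.32 and 2.16 CPM. Neither was called. After sham surgery *itga4* was called lower, and *itgae.1* and *itgae.2* were not called. *itgb2* was higher after cryoinjury (45.1 ± 30.3 CPM, SD, n = 3; adjusted p = 0.00476, edgeR) and after sham surgery (31.3 ± 21 CPM, SD, n = 2; adjusted p = 0.0192, edgeR) than in larval epicardium (4.17 ± 3.50 CPM, SD, n = 3), and the sham call was lost by total count and without larval library A or C or sham library 12. *itgae.1* and *itgae.2*, copies of the chain that binds E-cadherin on mucosal lymphocytes in mammals, were called higher after cryoinjury (adjusted p = 0.0438 and 0.0146, edgeR). The *itgae.1* call was lost under 7 alternatives, namely DESeq2 size factors, total count, and without any 1 larval epicardium library or cryoinjury library 7 or 8. *itgae.2* had 91, 12 and 2.49 CPM there, so that cryoinjury library 7 carried most of the signal, and the call was lost without it and without larval library A or C. All 5 leukocyte markers were called higher in both adult groups than in larval epicardium, with sums of 148 CPM or more in adults against at most 15.9 CPM, and their part was not tested. The thrombocyte receptor chain *itga2b* was uneven between libraries, with 0 counts, 0.612 and 7.67 CPM after cryoinjury and 20.6 CPM and 0 counts after sham surgery, and was not called in any comparison.

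Several low-level members had counts in larvae and none in adults. *lamb2l*, *lama3*, *itga2.1*, *itga6l* and *itgb8* had 0 counts in all 5 adult libraries, and the first 4 were called lower in both adult groups. The sham calls of *lama3*, *itga2.1* and *itga6l* were lost with the trend on abundance removed and without either sham library, as was the cryoinjury call of *itga2.1* with that trend removed. Those of *lama3* and *itga2.1* were also lost without larval library B, and that of *itga2.1* without larval library A. Against the floor, *lamb2l* was at least 14.8-fold lower after cryoinjury and at least 12.7-fold lower after sham surgery than in larval epicardium, where it had 9.33, 12 and 4.32 CPM. *itga8*, a nephronectin receptor chain, had 0 counts in 2 libraries and 0.767 CPM in the other after cryoinjury and 0 counts and 0.212 CPM after sham surgery, against 10.1, 11.1 and 6.99 CPM in larval epicardium, and its sham call was lost with the same trend removed and without either sham library. Larval non-epicardium held these genes too, with *itga8* at 0.764 to 8.67 CPM. Fewer genes of any kind were detected in adults: 53.3% to 54.9% of all genes had a count after cryoinjury, 46.6% and 52.7% after sham surgery, 88.2% to 92.6% in larval epicardium and 75.1% to 84% in larval non-epicardium. Among the members, 38 to 43 of 48 had a count after cryoinjury, 31 and 36 after sham surgery and 47 or 48 in each larval library.

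**Figure D3:**
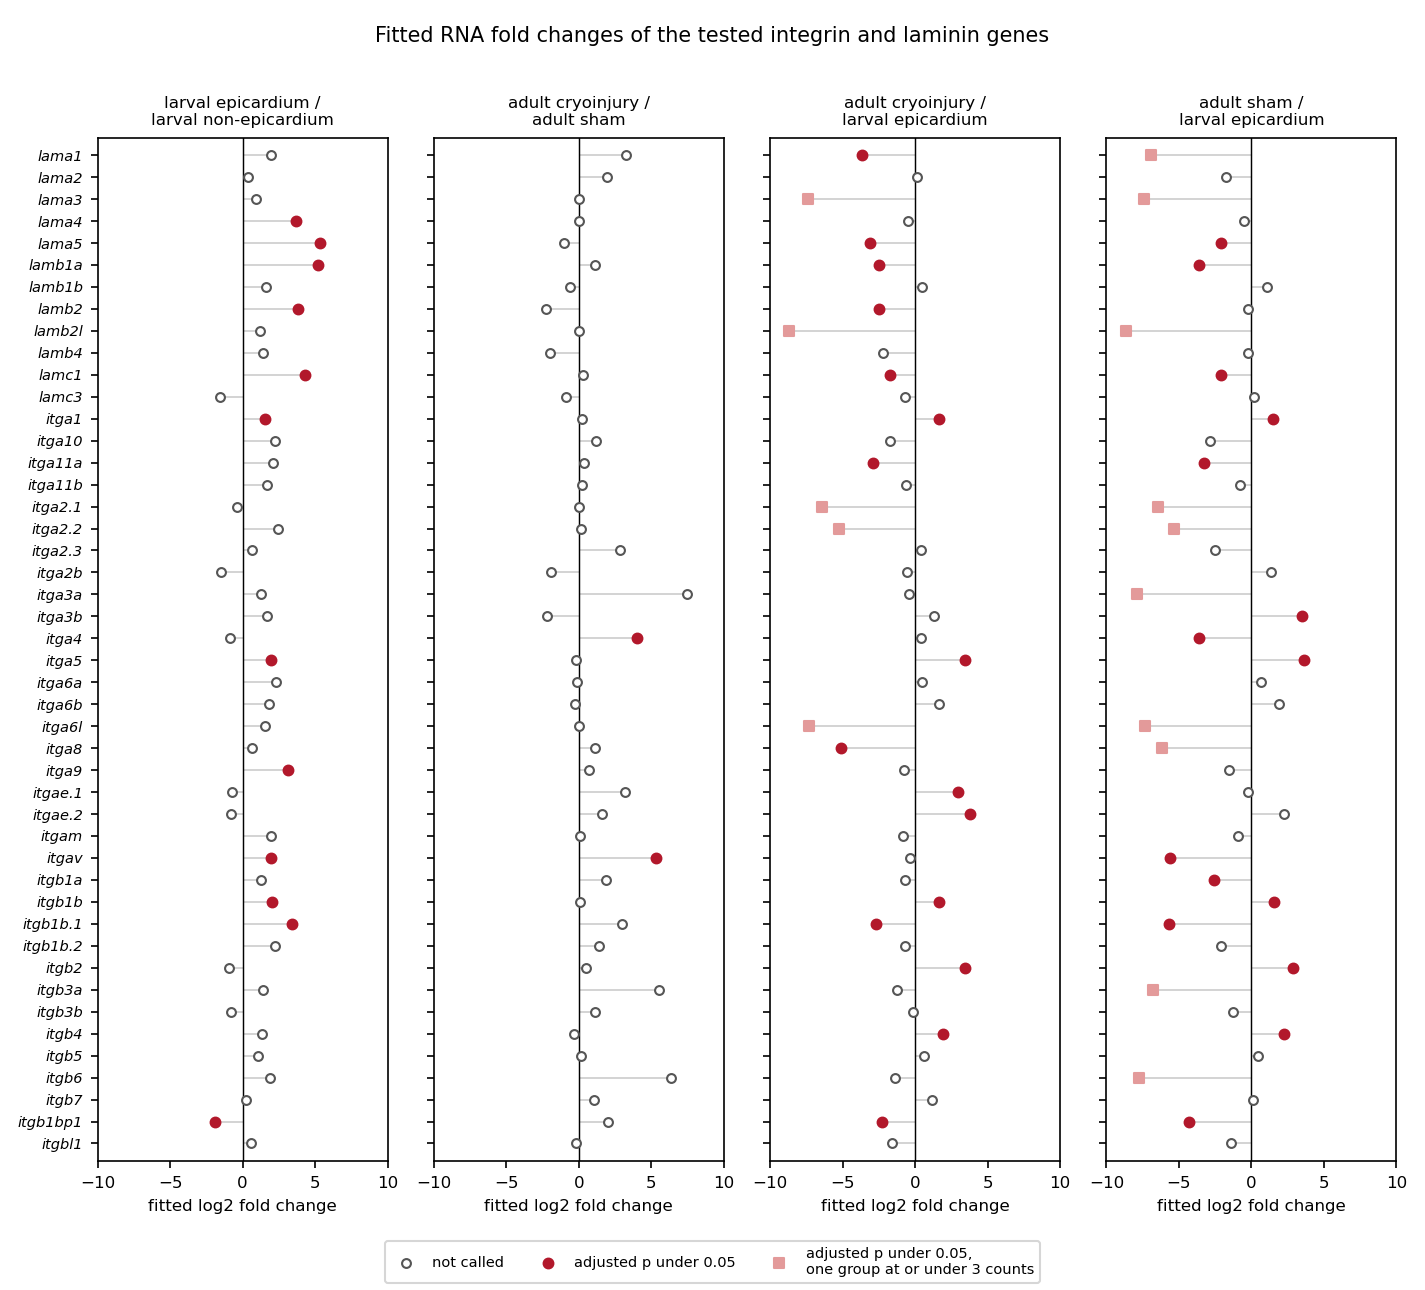
Fitted log2 fold change of 46 of the 47 tested members in 4 RNA comparisons, with filled symbols for an adjusted p under 0.05. Squares mark genes with one group at or under 3 counts in each library, whose fitted values depend on the prior count and are no measure of size. The 5 called laminins lie right of 0 in the first panel, and *itgav* and *itga4* are the filled points of the second.

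Across the members, 7 were higher and 14 lower after cryoinjury than in larval epicardium (44.7% of 47), where 38.1% of all genes were called (12.1% higher and 26% lower). After sham surgery, 6 were higher and 19 lower (53.2% of 47), where 37.2% of all genes were called (11.5% higher and 25.6% lower). The member medians were -0.70 and -1.52 on the log2 scale and those of all genes -0.59 and -0.92. The split between directions depended on the scaling: after sham surgery it was 2 higher and 20 lower by total count, 3 and 20 with DESeq2 size factors and 3 and 11 with the trend on abundance removed, where the median of all genes was -1.53, -1.23 and -0.52. After cryoinjury the splits were 5 and 14, 5 and 14, and 6 and 11. Without larval epicardium library B, 4 were higher and 11 lower after cryoinjury and 4 higher and 13 lower after sham surgery.

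Matrix ligands, adhesion adaptors and a list of other laminin receptors and receptor partners were counted alongside. Over all genes, 5.68% were called higher and 7.77% lower in larval epicardium than in non-epicardium. Of 20 tested matrix ligands, 6 rose and 1 fell in larval epicardium against non-epicardium, led by *fn1b*, a fibronectin (1213 ± 360 CPM in epicardium, 15.1 ± 4.64 CPM in non-epicardium, SD, n = 3 each; adjusted p = 4.88e-07, edgeR) and *col4a1*, a type IV collagen chain of the same basement membrane (1597 ± 501 and 39.3 ± 16.1 CPM; adjusted p = 1.22e-06, edgeR). Of 17 laminin receptors or receptor partners that are not integrins, 4 rose and 1 fell. Those that rose included *dag1*, which encodes dystroglycan (154 ± 66.7 CPM in epicardium, 11.6 ± 4.18 CPM in non-epicardium; adjusted p = 5.76e-05, edgeR), and *cd151*, a tetraspanin that binds laminin-receptor integrins (929 ± 453 and 55.4 ± 9.32 CPM; adjusted p = 3.91e-05, edgeR). Of 30 adhesion adaptors, 8 rose and 4 fell. No gene of the 3 lists was called after cryoinjury against sham surgery, where 0.318% of all genes were.

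Against larval epicardium, 5 matrix ligands were higher and 4 lower after cryoinjury, and 6 and 4 after sham surgery. Over all genes, 12.1% were called higher and 26% lower after cryoinjury, and 11.5% and 25.6% after sham surgery. Perlecan, *hspg2*, which links laminin networks to other matrix, averaged 504 ± 137 CPM after cryoinjury and 61.3 ± 12.7 CPM in larval epicardium (SD, n = 3 each; adjusted p = 8.46e-05, edgeR). Of the adaptors, 13 were higher and 2 lower after cryoinjury and 11 and 2 after sham surgery, with the tensin *tns1b* at 862 ± 197 CPM after cryoinjury and 107 ± 36 CPM in larval epicardium (adjusted p = 6.98e-05, edgeR). Of the other laminin receptors and receptor partners, 3 were higher and 4 lower after cryoinjury and 3 and 5 after sham surgery. *cd151* was among the lower ones, at 27.3 ± 12.3 CPM after cryoinjury, 53.1 ± 8.80 CPM after sham surgery (SD, n = 2) and 929 ± 453 CPM in larval epicardium.

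In chromatin, most of the peaks at these genes lay away from promoters. Of the 172 peaks, 97 were intronic (56.4%, against 42.9% of all peaks), 37 intergenic (21.5% against 24.9%) and 23 at promoters (13.4% against 20.6%). *itga5* had 18 peaks, *itga4* and *lamc1* 12 each, and 11 members had 1. The annotation gives each peak the gene of the nearest start site, on the GRCz10 build per the submitters' processing notes. By the transcript named in the feature column, 18 peaks lay inside a transcript of another gene than the one annotated. For a further 22 the gene of that transcript was not resolved. Of the 9 peaks annotated to *itgb1bp1*, 6 lay inside another gene.

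In larval epicardium against non-epicardium, 16 member peaks were higher and 12 lower with the tcf21 reporter (16.3% of 172), where 13.2% of all 61883 tested peaks were called (6.69% higher and 6.55% lower). With the tbx18 reporter 31 were higher and 27 lower (33.7%), where 26.9% of all were called (13.8% higher and 13.1% lower). The 2 reporters share no libraries. The tcf21 and tbx18 reporters shared 14 of the higher peaks, 87.5% of the 16 and 45.2% of the 31, and they belonged to 9 genes. They shared 8 of the lower peaks, 66.7% of the 12 and 29.6% of the 27, and no member peak was called in opposite directions. The same overlaps were not counted over all peaks, so they are not read as a trait of the members. Across the 172 peaks the fold changes of both reporters had a Spearman rho of 0.503, against 0.461 over all peaks, as a description across peaks.

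**Figure D4:**
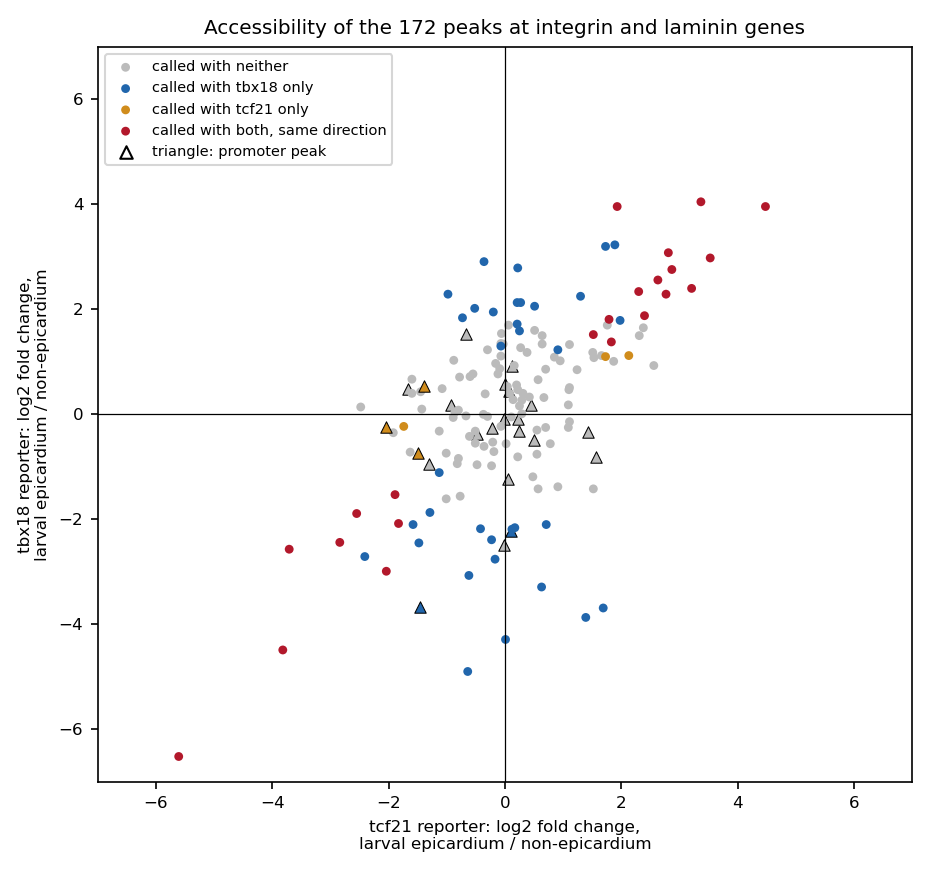
Log2 fold change of accessibility, larval epicardium over non-epicardium, with the tcf21 reporter (horizontal axis) and the tbx18 reporter (vertical axis) for the 172 peaks, 1 point each. The 14 peaks called higher and 8 called lower with both reporters lie in the upper right and lower left, and no promoter peak (triangles) is called higher with either reporter.

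None of the 23 promoter peaks was called higher in larval epicardium with either reporter, where 2.53% of all 12756 promoter peaks were with tcf21 and 3.57% with tbx18. Shares of this size leave fewer than 1 of 23 peaks, so the count of 0 is near the background. Those called lower were at *itga4*, *itgav* and *itgb1a* with tcf21 (10.1% of all promoter peaks were lower) and at *itga2.1* and *itga2.3* with tbx18 (6.62%). The promoter peaks of *lamb1a*, *lamc1* and *lamb2*, whose RNA was 13.9-fold to 36.4-fold higher in epicardium, had log2 fold changes of 0.25, 0.22 and -0.00 with tcf21 and of -0.31, -0.09 and 0.57 with tbx18. The peaks in the 5' untranslated regions of *lama4* and *lama5* were not called either (adjusted p from 0.429 to 0.955, edgeR). A difference at these start sites was not detectable at this depth. Of the promoter peaks, *itga6a* was called higher after cryoinjury than in tcf21 larval epicardium (log2 fold change 2.02) and *itgav* after sham surgery (1.46), where 5.38% and 3.63% of all promoter peaks were higher and 5.01% and 1.86% lower. No member promoter was called between the reporters or after cryoinjury against sham surgery, where 0.572% were higher and 0.18% lower between the reporters and 0.00784% lower after cryoinjury.

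At *lamb1a*, the intronic peak 6709 bases past the start site (chr25:31211175-31211675) had 41.4 and 42.1 CPM in tcf21 epicardium, 11.5 and 14 CPM in tcf21 non-epicardium, 55.7 and 50.3 CPM in tbx18 epicardium and 23.7 and 25.8 CPM in tbx18 non-epicardium. It was called with tcf21 (log2 fold change 1.73) and not with tbx18 (1.1), although the groups did not overlap with either reporter. Both adult groups were lower still, with 8.82, 6.98, 1.34 and 8.03 CPM after cryoinjury and 4.78 and 2.90 CPM after sham surgery. Against tcf21 larval epicardium the log2 fold changes were -2.77 after cryoinjury (SE 0.44, adjusted p = 1.27e-05, edgeR) and -3.35 after sham surgery (SE 0.57, adjusted p = 0.000154, edgeR). A second intronic peak of *lamb1a*, 64455 bases past the start site, showed the same calls, with log2 fold changes of 2.13 in tcf21 epicardium, -2.07 after cryoinjury and -2.21 after sham surgery. Here and below, the tcf21 larval comparison and the adult comparisons share the tcf21 larval epicardium libraries, so their calls are not independent. A peak of *lamb1a* in an exon, 4041 bases past the start site, was called lower in tbx18 epicardium (log2 fold change -2.10, SE 0.58, adjusted p = 0.00582, edgeR) and was not called with tcf21 (0.71). The direct test of the difference between the reporters called neither this peak nor the intronic ones above.

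A *lamc1* peak in intron 1 (chr2:35941107-35941607) was open in adults, with 12.3, 14.4, 11.4 and 21.4 CPM after cryoinjury and 15 and 18.8 CPM after sham surgery, and had 1.12 and 1.5 CPM, 1 count each, in tcf21 larval epicardium. It was at least 3.78-fold higher after cryoinjury (adjusted p = 0.00396, edgeR) and at least 4.31-fold higher after sham surgery (adjusted p = 0.00851, edgeR), and both calls were lost without either larval library. In tbx18 larval epicardium the same peak had 4.83 and 11.8 CPM. Peaks of *lama4* (7919 bases past the start site) and *lamb2* (21597 bases past it) were called higher with both reporters and lower after cryoinjury.

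**Figure D5:**
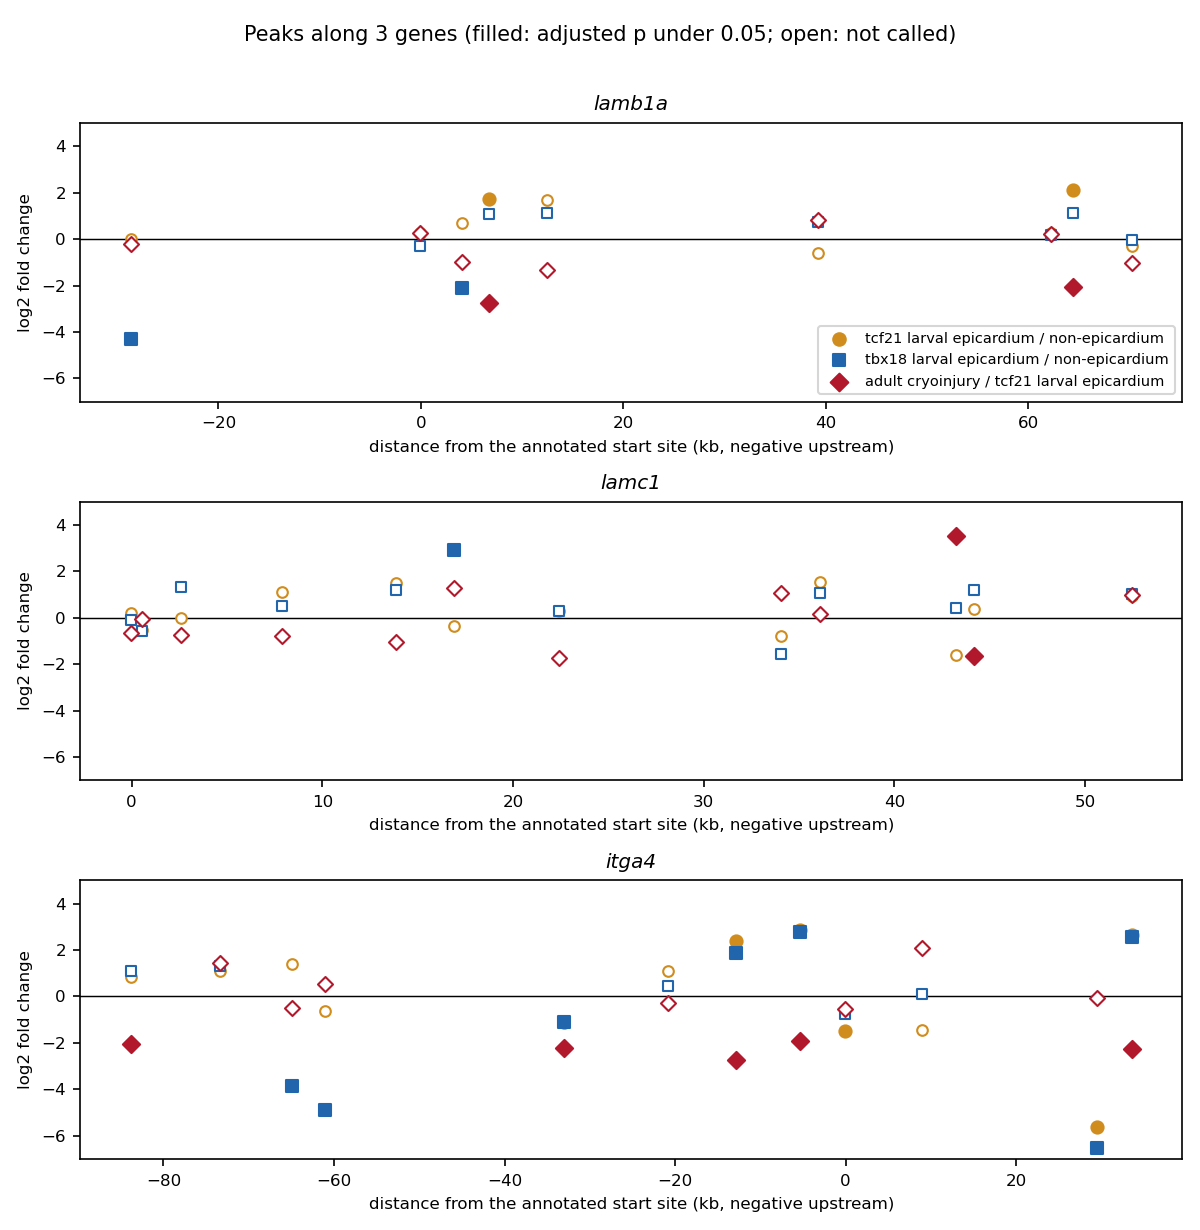
Log2 fold change of each peak annotated to *lamb1a*, *lamc1* and *itga4* by its distance from its annotated start site in kb, for 3 comparisons, with filled symbols for an adjusted p under 0.05. At *lamb1a* the 2 peaks filled for tcf21 are also the 2 filled below 0 for cryoinjury, and at *itga4* 3 peaks are filled above 0 for both reporters. Of the 12 *itga4* peaks, 2 are filled below 0 for tcf21 and 4 for tbx18, among them the one at -5.61 and -6.52. The tcf21 and cryoinjury comparisons share the tcf21 larval epicardium libraries and are not independent.

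*itga4* had peaks of opposite behaviour. Its intronic peak 29501 bases past the start site (chr9:44262454-44262954) had 4.47 and 1.5 CPM in tcf21 epicardium and 205 and 107 CPM in tcf21 non-epicardium, with 0.805 and 0.513 CPM in tbx18 epicardium and 59.5 and 81.7 CPM in tbx18 non-epicardium. These were the largest decreases among the member peaks with each reporter (log2 fold change -5.61, SE 0.60, adjusted p = 2.88e-08 with tcf21 and -6.52, SE 0.60, adjusted p = 4.51e-10 with tbx18, edgeR). In adults it stayed low, at 0.882 to 3.50 CPM after cryoinjury and 7.17 and 3.62 CPM after sham surgery. Of the 12 *itga4* peaks, 2 were called lower with tcf21 and 4 with tbx18, where 6.55% and 13.1% of all peaks were. The intergenic one at -61064 bases from the start site (chr9:44165539-44166039) was at least 9.92-fold lower with tbx18 (adjusted p = 6.53e-05, edgeR). It averaged 0.357 CPM in tbx18 epicardium and 10.6 CPM in tbx18 non-epicardium. Another 3 peaks went the opposite way, being higher in epicardium with both reporters and lower in both adult groups than in tcf21 larval epicardium. The one with the lowest log2 fold change after cryoinjury, at -12897 bases from the start site (chr9:44213706-44214206, log2 fold change -2.75), had 13.2, 17.4, 12.4 and 6.59 CPM after cryoinjury, 23.5 and 18.1 CPM after sham surgery, 62.6 and 101 CPM in tcf21 epicardium and 15.5 and 15.2 CPM in tcf21 non-epicardium. Both sets thus sit beside an RNA that was 51.3 ± 13.9 CPM in larval epicardium and 94 ± 15.9 CPM in non-epicardium (SD, n = 3 each).

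At other integrins, the intergenic peak at -31079 bases from the *itga5* start site (chr23:33662459-33662959) had 16.8 and 51.1 CPM in tcf21 epicardium and 0.998 and 2.33 CPM in tcf21 non-epicardium. With tbx18 it had 17.3 and 24.1 CPM in epicardium and 1.62 and 0.527 CPM in non-epicardium. The difference was at least 13.6-fold with tcf21 (adjusted p = 3.97e-05, edgeR), and the log2 fold change with tbx18 was 3.96 (SE 0.63, adjusted p = 7.37e-06, edgeR). After cryoinjury it had 11.5 to 17.9 CPM and after sham surgery 20.5 and 21.7 CPM, not called against tcf21 larval epicardium. Of the 18 *itga5* peaks, 1 was higher and 3 were lower after cryoinjury than in tcf21 larval epicardium, where 3.98% of all peaks were higher and 10.1% lower. Such splits rest on the scaling, as given below. These counts are near the background, so nothing is read from them beside an RNA that was 10.6-fold higher. The peak before *itga6a* (chr9:3445066-3445566) was higher with both reporters, with 32.4 and 15 CPM in tcf21 epicardium and 2.49 and 1.17 CPM in tcf21 non-epicardium (adjusted p = 0.000292, edgeR). The intergenic peak at -11758 bases from the *itga6b* start site (chr1:30203211-30203711) was lower with both reporters. It averaged 2.06 CPM in tcf21 epicardium and 27.3 CPM in tcf21 non-epicardium (at least 6.94-fold, adjusted p = 0.00371, edgeR), and the tcf21 call was lost under 2 alternatives. At *itgav*, 3 of 5 peaks were called higher with tbx18 and none with tcf21, where the promoter peak was lower (log2 fold change -1.40). The direct test of the difference between the reporters called none of the 5.

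After cryoinjury against sham surgery, no member peak was called with edgeR or with DESeq2, where 1 of all 61883 peaks was (0.00162%), and 12 of the 172 had an unadjusted edgeR p under 0.05, against 4139 of all 61883. The 5 peaks of *itgav* and 12 of *itga4*, the genes whose RNA rose, were among those not called. At the *itgav* promoter the log2 fold change was -0.49 and at the *itga4* promoter -0.35. A difference in accessibility beside these RNA changes was therefore not detectable with 4 libraries against 2 at this depth.

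Against tcf21 larval epicardium, 5 member peaks were higher and 23 lower after cryoinjury, where 3.98% of all peaks were higher and 10.1% lower, and 5 were higher and 12 lower after sham surgery, where 2.34% and 5.3% were. In either direction 14% and 7.64% of all peaks were called. These splits rest on the scaling. By total count, which moved the median of all peaks to 0.41 from 0.07 after cryoinjury and to 0.27 from 0.03 after sham surgery, they were 14 higher and 13 lower, and 6 higher and 7 lower. Besides those above, the named peaks were an *itgb8* intronic peak (chr19:2454627-2455127), with 24.7, 5.23, 10 and 10.1 CPM after cryoinjury and 1.12 and 1.5 CPM in tcf21 larval epicardium (at least 3.18-fold, adjusted p = 0.027, edgeR), and an intronic peak annotated to *itga1* (chr10:8923483-8923983), with 18.8 and 19.6 CPM after sham surgery and 2.24 and 4.51 CPM in tcf21 larval epicardium (at least 4.88-fold, adjusted p = 0.0238, edgeR). Both calls were lost without either larval library, the *itgb8* one also without cryoinjury library 1, with the trend on abundance removed and with the DESeq2 Wald test, and the *itga1* one without either sham library. After cryoinjury the *itga1* peak had 16.1 to 23.1 CPM and was also called (at least 4.85-fold, adjusted p = 0.00864, edgeR). It lay in an intron of a transcript whose gene was not resolved. An *itga4* peak at -32995 bases from the start site (chr9:44193608-44194108) was lower after sham surgery, with 9.55 and 5.07 CPM against 29.1 and 60.1 CPM in tcf21 larval epicardium (log2 fold change -2.50, SE 0.48, adjusted p = 0.000638, edgeR).

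Whether the epicardial effect differed between the reporters was tested directly, as tcf21 minus tbx18. Of the 172 peaks, 4 had the larger value with tcf21 and 1 with tbx18, where 1.1% and 0.409% of all peaks did (1.51% in all). One of the 4 was annotated to *lamb1a*, at -28687 bases from the nearest start site (chr25:31247502-31248002). It lay in an intron of a transcript whose gene was not resolved. This peak had 21.2 and 15 CPM in tcf21 epicardium and 22.4 and 12.8 CPM in tcf21 non-epicardium. With tbx18 it had 0.201 and 0.513 CPM in epicardium and 10.1 and 2.11 CPM in non-epicardium. The difference of log2 fold changes was 4.30 (SE 1.09, adjusted p = 0.035, edgeR), and the call was lost under 8 alternatives. The other 4, at *itga1*, *itga4*, *itga11b* and *itga5*, lost their calls under 5 to 10 alternatives. The reporters differ in construct as well as in gene, and these cannot be told apart.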

How the data were processed

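The authors deposited whole-number counts per gene for 11 RNA libraries and per peak for 14 ATAC libraries, with a minimum of 1 in the ATAC table. Per the submitters' processing notes, Bowtie 1.2.3, SAMtools 1.10, MACS2 2.2.7.1, HOMER, DiffBind 3.0.13, STAR 2.7.3a, featureCounts, edgeR 3.32.1 and GRCz10 were used, without role or order, and strand use in counting is not given in the sources used here. Gene lengths and distances to start sites are the authors' deposited values. A further 14 columns of normalized peak values were not used. Larval RNA columns could be matched to their group but not to one library each and are named A, B and C.

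Every library of an assay entered a single quasi-likelihood fit (glmQLFit, then two-sided glmQLFTest) in edgeR 4.0.16, run under R 4.3.3, after TMM scaling and filterByExpr (minimum count 10, minimum total 15). Benjamini-Hochberg adjustment ran over all 20745 genes or 61883 peaks, and an adjusted p under 0.05 is referred to as called. Folds are 2 raised to the fitted log2 fold change. The fit was tested on simulated data. CPM are TMM-scaled. Where a group had at most 3 counts in each library, the fold is a lower bound, the mean CPM of the other group against that floor. Alternatives were DESeq2 size factors, total count, limma 3.58.1 cyclic loess offsets (the trend on abundance removed), no filter, DESeq2 1.42.0, the compared groups alone, a replicate block (ATAC) and leaving out each library. Same-numbered ATAC libraries deviated together with correlations from -0.0295 to 0.121. Replicates all differed by more than sampling noise, with chi-square over its degrees of freedom from 26.3 to 73.8 (RNA) or from 3.14 to 5.1 (ATAC).

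Any called member could be named, with full statistics for at most 14 per comparison. Of the peaks, the 2 called in each direction with the largest log2 fold change, at least 1 CPM in the higher group and no overlap were named, with promoter peaks of members called in RNA, and other peaks were chosen after their values were seen. The members, the lists and the rules were chosen with earlier results of these data known. No genome sequence was used, so no sequences are printed. One member is counted among the totals but is not reported by name here, nor are its peaks.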

Additional observations from a re-analysis of the deposited data

Results flagged for a closer look

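The epicardial effect was called different between the tcf21 and the tbx18 reporter at 5 of the 172 member peaks (2.91%), where 1.51% of all peaks were called. The test was of the difference itself (tcf21 minus tbx18, log2 scale, edgeR). All 5 calls were lost when the compared groups were fitted alone, and each was lost under 5 to 10 alternatives in all. The differences were 5.38 at *itga1* (chr10:8929616-8930116), 5.26 at *itga4* (chr9:44161708-44162208), 4.30 at *lamb1a* (chr25:31247502-31248002), 3.93 at *itga11b* (chr25:1280805-1281305) and -3.27 at *itga5* (chr23:33653591-33654091), with adjusted p from 0.0249 to 0.0442. The *itga1* peak had 7.83 and 3.00 CPM in tcf21 epicardium, 2 and 1.17 CPM in tcf21 non-epicardium, 0.805 and 1.03 CPM in tbx18 epicardium and 11 and 13.2 CPM in tbx18 non-epicardium. Of the 4 tcf21 larval libraries, 3 are the shallowest of the ATAC set, where 3 counts correspond to as much as 4.51 CPM, and the part of depth in these differences was not tested.

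Among the 4 cryoinjury ATAC libraries, 1 library lay far from the others at 2 of the named peaks. At the *itga1* peak just named, library 3 had 2 CPM and the others 6.38 to 7.06 CPM, a gap of 0.866 of the whole range. At the *itga4* intronic peak (chr9:44262454-44262954), library 1 had 0.882 CPM and the others 3.05 to 3.50 CPM, a gap of 0.83 of the range. About 1 group in 20 is marked this way by chance, and the low value at *itga4* was 1 count.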

How the results depend on the processing

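No called gene changed direction under the alternatives run, nor did the called peaks named for the largest log2 fold changes. Scaling ATAC by total count turned the median log2 fold change over the member peaks positive against larval epicardium, to 0.21 after cryoinjury (-0.14 with TMM) and to 0.18 after sham surgery (-0.06), and turned the cryoinjury split to 14 higher and 13 lower (5 and 23). Fitting the compared groups alone gave 20 called members in larval epicardium against non-epicardium (12 in the fit of all libraries), 0 after cryoinjury against sham surgery (2) and 0 peaks for the difference between reporters (5). It tested 44, 35 and 165 members or peaks. With the DESeq2 Wald test the counts were 5 members after cryoinjury against sham surgery and 3 peaks between reporters, and with the trend on abundance removed 14 members (25) for sham surgery against larval epicardium. Leaving out 1 library gave 8 to 11 members for larval epicardium, 2 to 3 for cryoinjury against sham, 14 to 21 and 11 to 17 for cryoinjury and sham against larval epicardium. In ATAC it gave 10 to 23 peaks with tcf21, 39 to 46 with tbx18, 0 to 3 between reporters, 0 to 0 for cryoinjury against sham, and 14 to 28 and 4 to 9 for cryoinjury and sham against larval epicardium, with 18, 13 and 10 for tcf21 without epicardium library 1, epicardium library 2 or non-epicardium library 1, 15 and 14 for cryoinjury without tcf21 epicardium library 1 or 2, and 9, 7, 7 and 4 for sham without tcf21 epicardium library 1 or 2 or sham library 1 or 2. In RNA, sham against larval epicardium gave 14 without larval library A and 11 without either sham library. The cause was not tested. Blocking on the replicate number gave ATAC counts of 24 with tcf21, 58 with tbx18, 2 between reporters, 0 for cryoinjury against sham, 14 for cryoinjury against larval epicardium (28 without the block) and 12 for sham against larval epicardium. The numbers share no stated origin. No paired analysis was run in RNA. The larval columns of both groups carry the same numbers, but these differ from the numbers in the library titles, and the labels do not say what a shared number marks. The adult RNA groups share no number. Depth limits the low members and the shallow tcf21 ATAC libraries.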
